A study of Danio rerio with 2 samples.

Results

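Isolated accessible sites that were called in both MYC and MYCN neuroblastoma cells of zebrafish are described here. Overlapping peaks of the MYC list and the MYCN list on chromosomes 1 to 25 were merged into 89831 union regions, and a region holding at least 1 peak of each list was called shared. A shared region was isolated when no other union region, of either list, lay within 40 kb on either side. The rule kept 541 regions, which was 0.989% of the 54689 shared regions (95% Wilson interval 0.910 to 1.08). The remaining 54148 shared regions are the comparison throughout.

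The assay was ATAC-seq, which reads out accessible DNA through the cuts of a transposase. The first library came from tumours of MYC transgenic zebrafish and the second from tumours of MYCN transgenic zebrafish, with 1 library each and no replicate. In both, EGFP-positive tumour cells carrying the dbh:EGFP reporter, labelled as neuroblasts, were sorted from tumour tissue, and 50000 cells entered each reaction. The sources used here give neither the age of the fish, the number of fish behind a library nor the promoter that drives either oncogene, and the peak lists hold no gene expression with which to check the cell type.

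MYC and MYCN are closely related transcription factors that bind E-box sequences with their partner MAX, mostly at promoters and enhancers that are already accessible, and MYCN amplification marks an aggressive form of human neuroblastoma. The dbh gene, whose regulatory DNA gives the reporter its name, encodes the enzyme that turns dopamine into noradrenaline in the sympathetic cells from which this tumour arises. Accessible sites mostly lie together in gene-rich chromatin, where promoters and enhancers of neighbouring genes are close. A site that stands alone in a long stretch without others can be a remote enhancer, a lone promoter or a site bound by an architectural protein such as CTCF. Which of these the isolated regions are was not analysed here, because a danRer7 gene annotation and genome sequence were not used.

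The peak lists held 77834 MYC peaks and 68556 MYCN peaks on the 25 chromosomes. Read depth is unknown from peak lists, so a stretch without a peak is one in which nothing was called, and it is not shown to be closed chromatin. Each peak has a score that the authors deposited, whose scale is not stated. Scores of different lists need not share a scale, so each was turned into a percentile of its own list, where 100 is the strongest. The isolated regions were chosen by peak calls in these same libraries, so all differences below are descriptions without a test. Intervals cover counting error over regions only, and they say nothing of the spread between tumours.

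The isolated regions had weaker MYC peaks than the other shared regions, while their MYCN peaks ranked close to those elsewhere. The median MYC percentile was 50.8 (95% order-statistic interval 49.5 to 55.5) in the isolated regions and 63.7 (63.1 to 64.0) in the other shared regions. The median MYCN percentile was 56.6 (53.8 to 59.6) in the isolated regions and 58.6 (58.3 to 58.9) in the other shared regions. As deposited scores, the isolated regions had a MYC median of 113 (quartiles 67 and 214, range 21 to 883), against 160 (quartiles 88 and 291) in the other shared regions. Their MYCN median was also 113 (quartiles 72 and 189, range 24 to 765), against 120 (quartiles 72 and 212) in the other shared regions. The MYC medians differed by -12.8 percentile points, isolated minus other. With all 11 alternatives the difference kept its sign, but it was only -2.44 points with peaks at or above the median score of their list and -4.47 points with an isolation distance of 20 kb.

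The shift in the MYC list ran through both ends of the score range. In the highest decile of the MYC list lay 7.76% of the isolated regions (5.79 to 10.3) and 14.2% of the other shared regions (13.9 to 14.5). In its lowest decile lay 8.32% of the isolated regions (6.27 to 10.9) and 4.86% of the other shared regions (4.68 to 5.05). The MYCN list differed at its upper end, where the highest decile held 8.69% of the isolated regions (6.60 to 11.4) and 12.5% of the other shared regions (12.2 to 12.8). Its lowest decile held 4.81% of the isolated regions (3.30 to 6.95) and 5.80% of the other shared regions. Regions in the highest decile of both lists numbered 26 among the isolated ones, which was 4.81% (3.30 to 6.95), against 9.38% of the other shared regions (9.14 to 9.63).

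**Figure D1:**
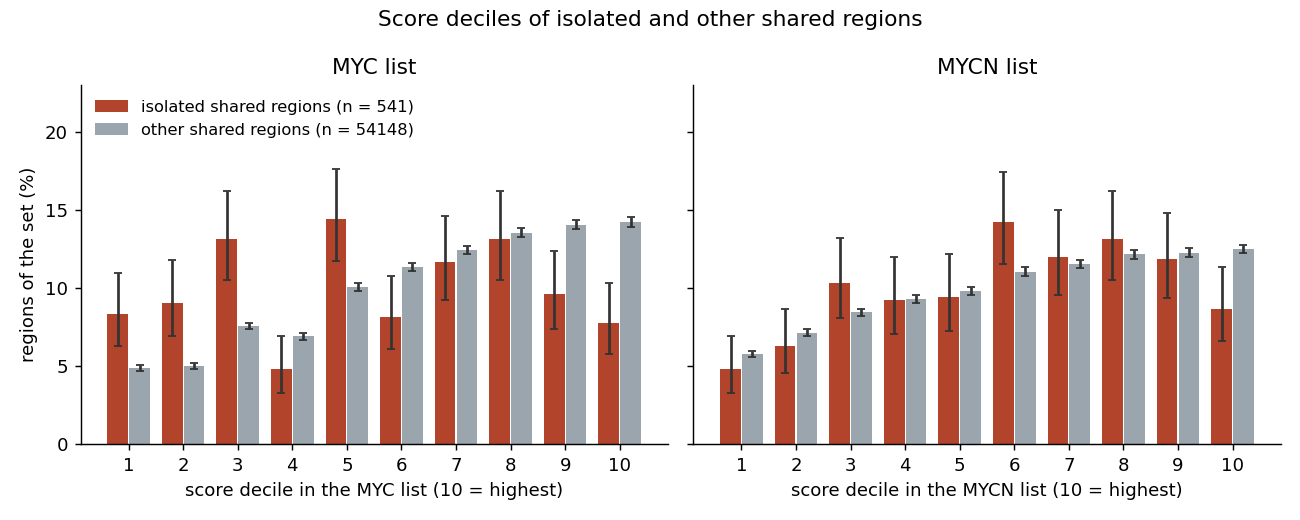
Percentage of regions (vertical axis) in each decile of the score of the MYC list (left) and the MYCN list (right), for isolated shared regions (red) and other shared regions (grey), with 95% Wilson intervals. In the highest decile of the MYC list the isolated bar stands at 7.76% and the other bar at 14.2%. Many low scores are tied, so single bars at the low end are uneven.

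With neighbours of either list counted, the isolated regions ranked lower in MYC relative to MYCN than the other shared regions did. A percentile depends on the length of its list, 77834 MYC and 68556 MYCN peaks, so a difference of 0 is not a neutral point. A lean towards MYC or MYCN is here only the sign of the percentile difference. With the MYC list trimmed to the length of the MYCN list, the MYC percentile difference given above was -8.87 points, and the lean was not computed. Among isolated regions the MYC percentile was above the MYCN percentile in 246 of 541, or 45.5% (41.3 to 49.7), against 59.0% of the other shared regions (58.6 to 59.4). The median of the MYC minus MYCN percentile was -1.99 points (-3.41 to -0.08) in the isolated regions and 2.72 points (2.57 to 2.88) in the other shared regions. A MYC percentile lower than the MYCN percentile by 25 points or more was found in 100 isolated regions, or 18.5% (15.4 to 21.97), where the share of all shared regions was 8.35%. A MYC percentile higher by 25 points or more was found in 58, or 10.7% (8.39 to 13.6), where the share of all shared regions was 14.3%. Across regions, which are not replicates and share both libraries, the Spearman correlation of the percentiles was 0.61 over the 541 isolated regions and 0.74 over the 54148 others.

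The lean depended in part on whose peaks defined isolation. Relative to the other shared regions, the median MYC minus MYCN percentile was lower by 4.71 points with neighbours of either list. It was -6.40 points relative to the others when only regions with a MYC peak counted as neighbours, and -1.87 points when only regions with a MYCN peak did. The lean towards MYCN itself was present with MYC neighbours, where the median was -3.59 points (-5.40 to -2.25) over 1162 isolated regions. It was not seen with MYCN neighbours, where the median was 0.85 points (-0.16 to 1.42) over 1237 isolated regions. The other shared regions had medians of 2.81 points (2.66 to 2.97) with MYC neighbours and 2.73 points (2.58 to 2.90) with MYCN neighbours. The isolated regions thus stayed below the others in either setting. Within classes of equal MYCN score, in quintiles of the list, the median MYC percentile of the isolated regions was 29.7, 29.7, 45.4, 65.6 and 84.6, from the weakest class to the strongest. In the other shared regions it was 33.0, 43.8, 55.3, 71.0 and 90.3. The isolated regions were thus lower in MYC in all 5 classes, and the interval of their median held the value of the others in the weakest class only. Within quintiles of the MYC score, the median MYCN percentile of the isolated regions was 35.4, 38.1, 54.3, 63.7 and 87.0, against 28.7, 33.4, 44.0, 62.1 and 87.3 in the others. Here the interval of the isolated median lay above the value of the others in the middle class only (46.7 to 59.6). In the strongest class the isolated median was the lower one.

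**Figure D2:**
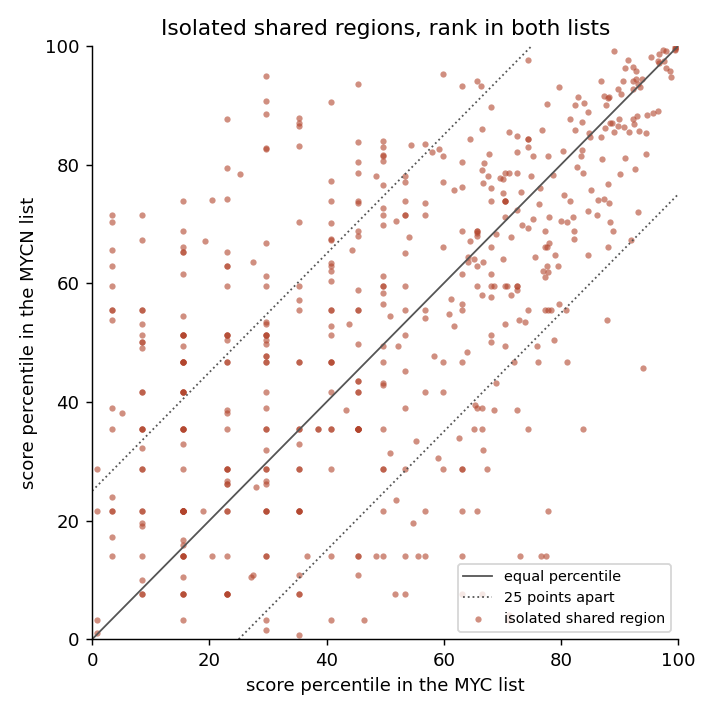
Score percentile in the MYC list (horizontal) and in the MYCN list (vertical) of each of the 541 isolated shared regions, with lines for equal percentiles (solid) and for 25 points apart (dotted). More points lie beyond the upper dotted line (100 regions) than beyond the lower one (58), and the columns and rows of points at the low end are tied scores.

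The strongest isolated regions were picked by the mean of their MYC and MYCN percentiles, so a high rank in both lists follows from the choice. The highest by mean percentile lay at chr7:52703912-52705288, with a score of 883 and rank 233 in MYC and a score of 765 and rank 120 in MYCN. The nearest other regions lay 54.0 kb to its left and 50.1 kb to its right. The next lay at chr4:28471877-28472287, where a compact site of 411 bp had a MYC score of 834 and a MYCN score of 730, with gaps of 42.3 and 94.2 kb. This site lies beyond 22 Mb of chromosome 4, whose long arm is known as gene-poor heterochromatin. A site at chr11:9174235-9174870 had scores of 828 in MYC and 675 in MYCN, and a site at chr23:45377865-45378656 had scores of 817 in MYC and 628 in MYCN.

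These 4 sites ranked within the first 420 MYC peaks and the first 479 MYCN peaks. The following 4 were lower in MYC, at ranks 1632 to 2526. They were chr22:18004940-18005793 (MYC score 656, MYCN score 599), chr16:13291693-13292244 (621 and 633), chr5:55987645-55988666 (591 and 558) and chr2:17781218-17781781 (640 and 488). In MYCN they ranked 459 to 1720. At the weak end, the lowest mean percentile was that of a region at chr6:21946010-21946408, with a MYC score of 21 and a MYCN score of 25. It was chosen after its values were seen.

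The isolated regions were narrower than the other shared regions, by less than the distance between the quartiles of either set. Their union width had a median of 400 bp (quartiles 313 and 515), against 438 bp (334 and 575) in the other shared regions. The widest MYC peak of a region had a median of 336 bp in the isolated regions (323 to 355) and 394 bp in the others (392 to 396). The widest MYCN peak had a median of 322 bp in the isolated regions (310 to 341) and 353 bp in the others (351 to 355). Regions over 1 kb wide were 4 of the 541 isolated, or 0.739% (0.288 to 1.89), and 2.38% of the others (2.25 to 2.51). The width difference was not stable: at an isolation distance of 20 kb, and with peaks at or above the median score, the isolated regions were wider by 1 bp.

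Width went with the score, and within classes of equal score the width difference was smaller. The exception was the strongest class of the MYCN list. Across isolated regions the Spearman correlation of MYC percentile and width of the MYC peak was 0.70, and that of the MYCN values was 0.65. Within quintiles of the MYC score, the median width of the MYC peak in isolated regions was 212, 273, 324, 393.5 and 496.5 bp, from the weakest class to the strongest. In the other shared regions it was 239, 283, 338, 424 and 526 bp. The isolated regions were thus narrower by 10 to 30.5 bp in each class, against 58 bp over all classes, and in the weakest class the interval of their median (207 to 228 bp) lay below the value of the others. In quintiles of the MYCN score the isolated MYCN peaks were narrower by 6.5 to 33 bp, against 31 bp over all classes. The 33 bp was found in the strongest class, with medians of 454 bp in isolated and 487 bp in other shared regions. In the middle class the interval of the isolated median (276 to 307 bp) lay below the 312 bp of the others.

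**Figure D3:**
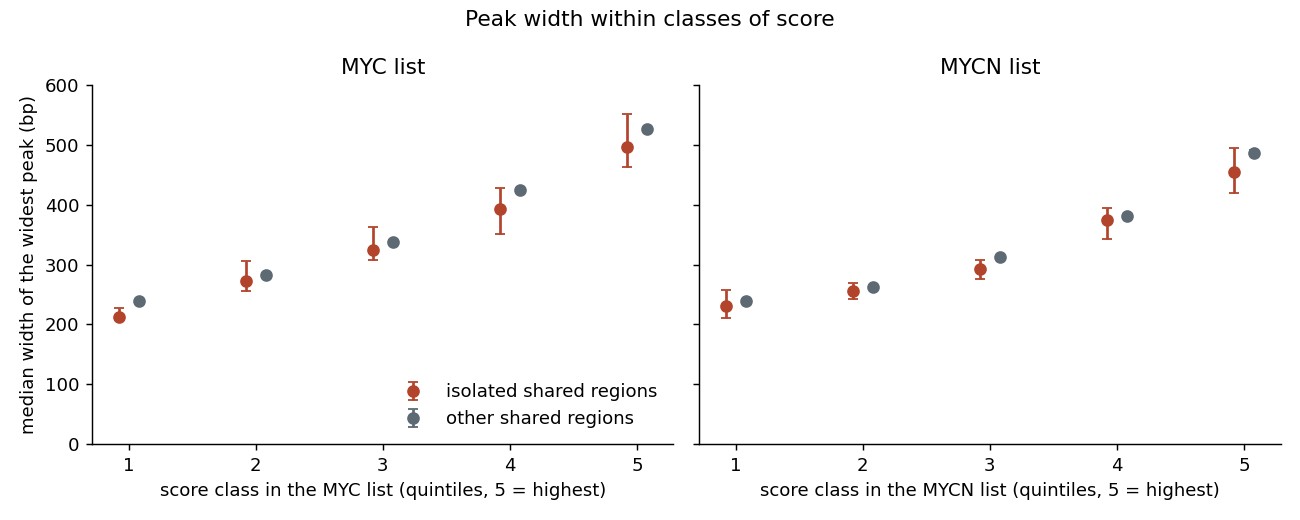
Median width in bp of the widest peak of a region (vertical axis) in quintiles of the score of the MYC list (left) and the MYCN list (right), for isolated shared regions (red) and other shared regions (grey), with 95% order-statistic intervals. Width grows with score in both sets, from 212 to 496.5 bp in isolated MYC peaks, and the red points lie below the grey ones by at most 33 bp.

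The 5 widest isolated regions were of different kinds. The widest lay at chr15:9609175-9611079 and spanned 1905 bp. It was split into 3 peaks in MYC, the strongest with a score of 381 and rank 8449, and was a single peak of 1894 bp in MYCN, with a score of 607 and rank 585. The chr17:45175892-45176977 region had a width of 1086 bp and moderate scores of 176 in MYC and 193 in MYCN. A region at chr5:70115483-70116444, 962 bp wide, held 2 MYC peaks (highest score 168) and 1 MYCN peak (136). The other 2 of the widest, on chromosomes 7 and 5, were among the 8 strongest sites above.

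The positions of the peaks matched between the lists about as well in isolated regions as elsewhere. Exactly 1 peak of each list was present in 527 isolated regions, or 97.4% (95.7 to 98.5), against 96.7% of the others (96.6 to 96.9). In these the midpoints of the MYC and the MYCN peak were a median of 28 bp apart (25 to 31), against 27 bp (27 to 27.5). The overlap covered at least 50% of the wider peak in 92.4% of isolated regions (89.8 to 94.4), against 93.6% of the others (93.3 to 93.8). The MYC peak was the wider one in 53.9% of isolated regions (49.6 to 58.1), against 64.1% of the others (63.7 to 64.6). The median ratio of MYC to MYCN width was 1.02 (1.00 to 1.04) in isolated regions, against 1.07 in the others.

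Some isolated regions ranked far higher in one list than in the other. The largest difference towards MYC was at chr24:6185173-6185809, at percentile 71.1 in MYC (score 200) and 3.18 in MYCN (score 31). Next came chr7:3099946-3100416, at 71.1 in MYC and 4.15 in MYCN. The other 3 lay at chr25:34601886-34602382 (MYC score 246), chr4:43647541-43647953 (238) and chr6:30925574-30926097 (213), all with a MYCN score of 46. In 4 of these 5, the MYCN peak was narrower than the MYC peak by over 200 bp.

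The largest difference towards MYCN was at chr8:20114870-20115241, at percentile 3.32 in MYC (score 29) and 71.4 in MYCN (score 165). A region at chr6:24453335-24453638 had the same MYC score of 29 and a MYCN score of 160. Both MYC peaks were 200 bp wide, the smallest width in the list. A region at chr21:5536145-5536594 was at percentile 29.7 in MYC (score 67) and 94.9 in MYCN (score 401, rank 3492). The last 2 lay at chr25:28916884-28917341 (MYC score 57, MYCN score 279) and at chr9:46857758-46858561 (38 and 165). With 1 library per transgene, no spread between tumours is available for these differences.

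Isolated regions were found on all 25 chromosomes, with 11 to 33 on each and a median of 21. Chromosome 1 held the most, 33, which was 1.29% of its shared regions (0.921 to 1.81). The next were chromosome 20 with 30 and chromosome 5 with 29, although chromosome 5 spans 75.7 Mb and its share of 0.990% was that of the genome. Chromosome 21 held the fewest, 11, or 0.545% (0.304 to 0.973), and its interval was the single one that left out the genome-wide share of 0.989%. It contained that share when only regions with exactly 1 peak of each list were used, whereas 8 intervals left the share out at an isolation distance of 20 kb. Per Mb the density ran from 0.247 on chromosome 21 to 0.547 on chromosome 1, with 0.399 over all chromosomes.

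**Figure D4:**
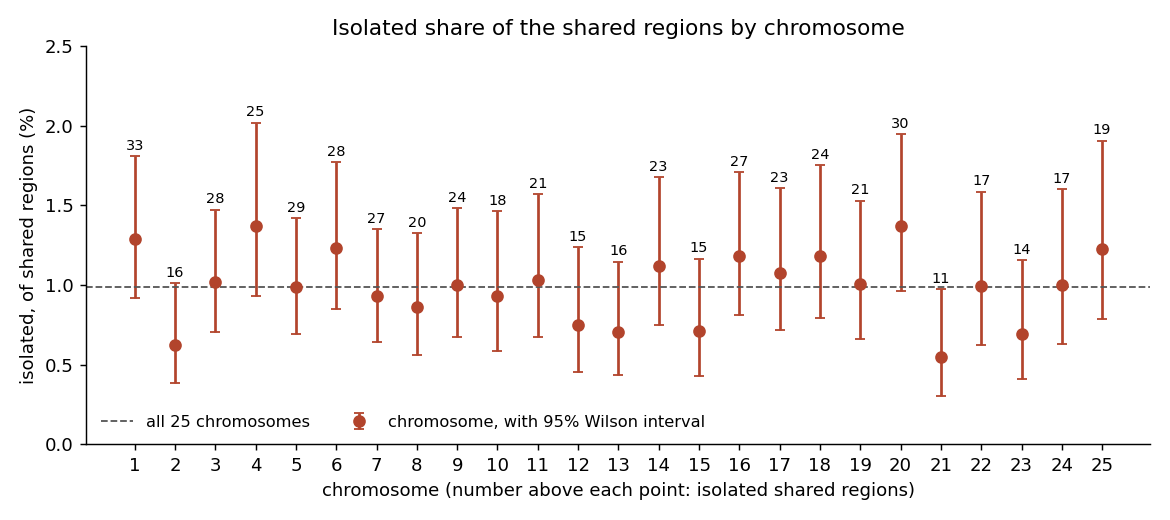
Isolated regions as a percentage of the shared regions of each chromosome (vertical axis), with 95% Wilson intervals and the number of isolated regions above each point; the dashed line is the share over all 25 chromosomes, 0.989%. The points run from 0.545% on chromosome 21 to 1.37% on chromosome 4, and chromosome 21 alone has an interval that leaves out the line.

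Chromosomes with fewer shared regions per Mb had a larger isolated share, with a Spearman correlation of -0.52 across the 25 chromosomes, which share both libraries and whose density also enters the share. Chromosome 4 had the lowest density, 29.4 shared regions per Mb, and the highest isolated share, 1.37% (0.931 to 2.02). Its isolated regions lay mostly beyond 22 Mb, which takes in the gene-poor long arm. Before 22 Mb, 3 of 1036 shared regions were isolated, or 0.290% (0.0985 to 0.848), and from 22 Mb on, 22 of 786 were, or 2.80% (1.86 to 4.20). Within 2 Mb of the outermost regions of a chromosome lay 23 isolated regions, or 4.25% (2.85 to 6.30), against 9.24% of the other shared regions (8.99 to 9.48).

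With neighbours of either list, the sign of the lean differed between chromosomes. The median MYC minus MYCN percentile of the isolated regions was below 0 on 17 chromosomes and above 0 on 8, and ran from -14.6 points on chromosome 5 (29 regions) to 11.5 points on chromosome 8 (20 regions). On chromosome 4 it was 4.41 points over 25 regions. Several medians lay near 0, such as -0.06 on chromosome 11, -0.11 on chromosome 13 and 0.08 on chromosome 16. Intervals of these medians, and values of the other shared regions, were not computed per chromosome. Without chromosome 4, the MYC percentile of isolated regions was lower than that of the others by 14.3 points at the median.

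Around the isolated regions the next site lay at a median of 48.3 kb on the nearer side (quartiles 43.1 and 57.9) and 73.5 kb on the farther side (57.2 and 98.6). In the other shared regions the nearer site was at a median of 4.52 kb. The distance exceeded 60 kb on both sides for 127 isolated regions and 100 kb on both sides for 16. The rule fixes only the inner 40 kb. Beyond it, between 40 and 500 kb on both sides together, a median of 45 MYC peaks (44 to 46) and 42 MYCN peaks (41 to 43) lay around isolated regions, against 55 MYC and 48 MYCN peaks around the others. Summed over regions, there were 1.09 MYC peaks per MYCN peak in these flanks of isolated regions, against 1.15 in those of the others. For this count 2 isolated regions too near a chromosome's outermost peaks were left out.

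The sites that bounded these stretches were shared somewhat less often than union regions in general, and they were more often MYCN-only. Of the 1082 bounding sites, counted once per side, 55.5% were shared (52.6 to 58.5), 20.8% were MYC-only (18.5 to 23.3) and 23.7% were MYCN-only (21.2 to 26.3). Of all union regions, 60.9% were shared, 25.1% were MYC-only and 14.1% were MYCN-only. Among union regions with the nearest other region at 20 to 40 kb, 54.8% were shared, which is close to the bounding sites. Of the single-list regions at that spacing, 50.6% were MYC-only, so a raised MYCN-only share is not particular to the bounding sites. The bounding region was itself isolated in 226 cases, or 20.9% (18.6 to 23.4), against 1.25% of all union regions. These shares are not alike, because a bounding region has over 40 kb without a peak on 1 side through the rule. Most isolated regions, 444, had no isolated shared region as the next site on either side. The others formed 39 pairs, 5 series of 3 and 1 series of 4.

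The series of 4 lay at chr16:37224031-37437200, over 213 kb. Its sites were at 37224031 to 37224395 (MYC score 133, MYCN score 46), 37314169 to 37314516 (158 and 55), 37371445 to 37372044 (719 and 397) and 37436918 to 37437200 (47 and 55). The third of them was a strong site in both lists, at percentile 98.7 in MYC and 94.7 in MYCN. A series of 3 at chr2:13211536-13333756 ended in a strong site at 13333273 to 13333756 (393 and 268) after 2 weak ones. A series of 3 at chr6:46810564-46953006 held sites of moderate score, 84 to 209 in MYC and 72 to 191 in MYCN.

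The 5 most remote isolated regions ranged from percentile 22.9 to 75.3 in MYC and from 21.7 to 83.4 in MYCN. The one with the largest distance to its nearer neighbour lay at chr9:44052782-44053072, with 173 kb without a peak on either side, a MYC score of 99 and a MYCN score of 121. A region at chr3:2738456-2738752 had gaps of 158 and 164 kb and scores of 67 in MYC and 101 in MYCN. A region at chr7:2568712-2568986 had 401 kb without a peak on its left and 133 kb on its right, with scores of 57 in MYC and 55 in MYCN. The remaining 2 lay at chr18:29720081-29720517 (133 in MYC, 238 in MYCN) and at chr6:38020966-38021345 (229 and 223). Their widths were 275 to 437 bp, and the 42 isolated regions over 80 kb from the next site had a median width of 411.5 bp, against 400 bp over all isolated regions.

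At the threshold itself, scores were mixed on both sides. The 3 regions just inside had nearer gaps of 40042, 40083 and 40088 bp, with MYC scores of 88, 158 and 67 and MYCN scores of 130, 362 and 55. The 3 shared regions just outside had nearer gaps of 39982, 39979 and 39970 bp, with MYC scores of 67, 409 and 199 and MYCN scores of 122, 226 and 202. Among isolated regions, the Spearman correlation of score percentile with the distance to the nearer neighbour was -0.03 in MYC and -0.04 in MYCN.

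A smaller share of isolated sites than of other sites was called in both lists. Of all 1123 isolated union regions, 541 were shared, or 48.2% (45.3 to 51.1), 274 were MYC-only and 308 were MYCN-only. Of the other union regions, 61.0% were shared (60.7 to 61.4). The isolated MYC-only regions had a median percentile of 15.5 in MYC, and the isolated MYCN-only regions one of 21.7 in MYCN, both below the isolated shared regions. Regions were also put into 5 classes of 20 points by the higher of their percentiles. The shared share of isolated regions was then 6.42%, 32.8%, 64.1%, 83.7% and 98.6% from the weakest to the strongest, against 11.4%, 36.7%, 66.4%, 90.05% and 98.7% of the others. The interval of the isolated share lay below the value of the others in the weakest class (4.24 to 9.62) and in the class next to the strongest (78.1 to 88.2), and held it in the other 3.

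The share of MYC-only among single-list sites was also lower in isolation. It was 47.1% (43.1 to 51.1) of the 582 isolated single-list regions, against 64.4% (63.9 to 64.9) of the other 34560. It was lower at wider spacing already below the threshold. MYC-only sites made up 66.3% to 67.0% of single-list sites in each class of spacing up to 10 kb, 58.6% at 10 to 20 kb, 50.6% at 20 to 40 kb and 47.5% at 40 to 60 kb. The shared share was 60.4% to 62.9% up to 10 kb, 54.8% at 20 to 40 kb and 48.9% at 40 to 60 kb. For shared regions the median MYC percentile was 64.2 at 10 to 20 kb, 59.8 at 20 to 40 kb, 52.6 at 40 to 60 kb and 49.5 at 60 to 80 kb. The median MYCN percentile was also lower at each step over these classes, but by less, at 61.3, 58.6, 56.6 and 55.6. Only 42 shared regions were more than 80 kb from the next site, with medians of 57.4 in MYC and 65.0 in MYCN.

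**Figure D5:**
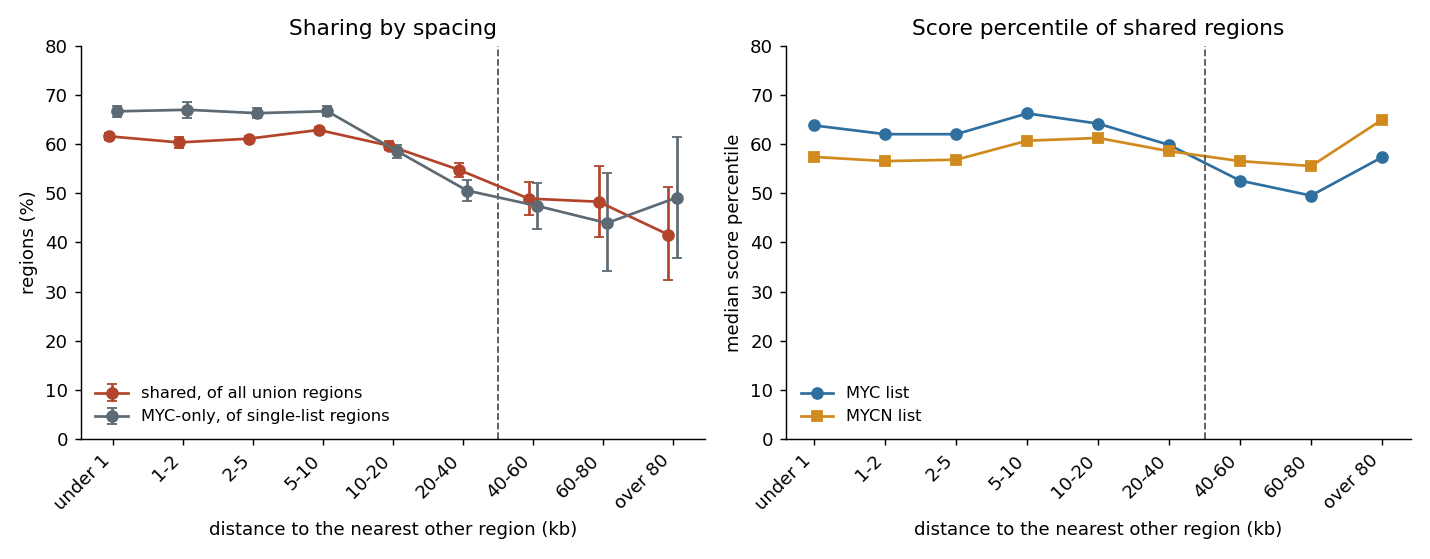
Regions by distance in kb to the nearest other region (horizontal axis): on the left the percentage shared among all union regions (red) and the percentage MYC-only among single-list regions (grey), with 95% Wilson intervals, and on the right the median score percentile of shared regions in the MYC list (blue) and the MYCN list (orange). The dashed line marks 40 kb. Beyond it the MYC median lies below the MYCN median (52.6 and 56.6 at 40 to 60 kb), whereas it lies above at every shorter spacing. The median MYC minus MYCN percentile was 0.26 points (-0.27 to 0.96) at 20 to 40 kb and -1.93 points (-3.58 to 0.15) at 40 to 60 kb. Both intervals held 0, which is not a neutral point, so the place where the lines cross carries no meaning.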

How the data were processed

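The data were 1 ATAC-seq peak list each for MYC and MYCN tumour cells. The submitters' processing notes name Bowtie2 2.2.1, MACS2 2.1.0 and the build danRer7, and the peak names in the files carry the name of MACS2. Not given in the sources used here are the settings, any Tn5 shift, duplicate removal and any control. In each list the authors deposited a whole-number score per peak, whose scale no header states. Its lowest value was 13 in both lists.

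Mitochondrial peaks (2 MYC, 3 MYCN) were left out. Peaks overlapping by at least 1 bp were merged. A gap is the number of bases between regions, and a region was left out of the isolated set if either gap was 40000 bp or less. A region's score in a list was that of its strongest peak there. Percentiles used mid-ranks for ties, which are frequent: the 10 most common scores held 26.4% of MYC and 23.0% of MYCN peaks. Python 3.11.15, numpy 2.4.6, pandas 2.3.3, scipy 1.17.1 and matplotlib 3.10.9 were used. bedtools 2.31.1 gave the same counts of 89831 union and 541 isolated shared regions, and the code was tested on simulated data.

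The regions described one by one were the 8 with the highest mean percentile, the 5 widest, the 5 most remote, the 5 with the largest rank difference in either direction, the 3 longest series and 3 on either side of the threshold. Ties were resolved by chromosome and start. The members and rules were chosen with earlier results of these data known. Positions are danRer7, counted from 1.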

Additional observations from a re-analysis of the deposited data

How the results depend on the processing

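The number of isolated shared regions followed the definition. It was 3209 (5.87% of shared regions) at 20 kb and 127 (0.232%) at 60 kb, 1605 (5.77%) with peaks at or above their list's median score, and 2498 (4.57%) when only shared regions counted as neighbours. With the lowest-scoring MYC peaks dropped until the lists were equally long, the share was 1.19%. With neighbours from the MYC list alone it was 1162 (2.12%) and from the MYCN list alone 1237 (2.26%), alternatives chosen after seeing the data. The MYC percentile of isolated minus other shared regions was -4.47 at 20 kb, -2.44 with peaks at or above the median, -14.3 without chromosome 4, -14.3 with MYC neighbours and -8.07 with MYCN neighbours. The width difference was 1 bp at 20 kb and 1 bp with peaks at or above the median, where its sign was opposite. It was -63 bp at 60 kb, -16 bp with shared neighbours and -20 bp with MYCN neighbours. The difference in rank lean was -6.40 with MYC and -1.87 with MYCN neighbours. With MYCN neighbours the isolated regions no longer leaned towards MYCN (median 0.85 points), but stayed below the other shared regions (2.73 points). Chromosomes whose interval left out the genome-wide share numbered 8 at 20 kb, 5 with peaks at or above the median, 3 with the trimmed list, 0 with regions of exactly 1 peak of each list, 6 with shared neighbours, 6 with MYC neighbours and 5 with MYCN neighbours. Chromosome 4 held 4.62% of isolated regions as reported (3.15 to 6.73), 7.25% with shared neighbours and 7.60% with MYCN neighbours. Of all 54689 shared regions, 1822 lay on this chromosome. Of isolated regions 53.9% were shared with peaks at or above the median, and with the trimmed list 34.8% of isolated single-list regions were MYC-only. The shares of the other regions under these settings are not given here, so neither value can be read as a difference from them. The other 46 values lay within the interval of the reported value or, for counts, within 1.5 times of it. The causes of these shifts were not tested. The planned look at sequence was not run, since a danRer7 genome was not used here. No paired analysis was possible because the labels give 1 library to each group, and for the same reason no replicate could be left out. The unknown read depth limits every statement on a stretch without peaks.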

Other observations

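Of the 5 longest stretches between neighbouring peaks of either list, 3 were bounded by an isolated shared region. The rule requires over 40 kb without a peak on both sides of such a region, so this count follows in part from the choice. The share over all long stretches is not given here. The longest, 401 kb at chr7:2167428-2568711, ended at the remote region described above, and the next, 384 kb at chr7:3100417-3484494, began after the region with a MYC percentile of 71.1 and a MYCN percentile of 4.15. Both stretches lie within 1.32 Mb of chromosome 7, with a MYC-only site at either outer limit. The fifth longest, 344 kb at chr3:5262320-5606375, also ended at an isolated shared region. The third and the fourth, 374 kb at chr10:41741843-42115755 and 353 kb at chr1:34396228-34749250, had none at their limits. These stretches were chosen after their values were seen.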
